A study of Homo sapiens with 7 samples.

Results

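The proneural basic helix-loop-helix (bHLH) genes NEUROG1, NEUROG2, NEUROG3, NEUROD1, NEUROD4, ATOH1, OLIG1 and OLIG2 were taken by gene name from the expression tables of 7 RNA-seq libraries. All 8 were found, each with 1 entry, among 22670 genes listed per library, of which 20187 lie on chromosomes. The libraries came from SEES-3 cells, an established line of human embryonic stem cells (hESCs), kept without feeder cells in StemFit AK-03 medium on iMatrix-511. In the JMJD3c-hESCs, doxycycline (Dox, 1 µg/ml) switches on a tagged catalytic domain of the H3K27 demethylase JMJD3 from a Tet-controlled piggyBac construct. They were sampled untreated (Day 0) and on Days 1, 2, 3 and 4 of Dox. The JMJD3c mut-hESCs, a separate line whose domain is catalytically inactive, were sampled without Dox and on Day 4 of Dox (mut -Dox and mut +Dox). All libraries, controls included, carry such a construct, with the selection by puromycin it entails. Each condition had 1 library, so differences between libraries could not be set against a replicate error and no p-values were calculated.

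Proneural bHLH factors bind E boxes (CANNTG) as dimers with E proteins and start neuronal or glial programmes. Polycomb repression, marked by H3K27me3, holds many of their genes silent in embryonic stem cells. ID proteins block them by taking up E proteins, and HES and HEY repressors, many of them targets of Notch, keep their genes silent in progenitors. NEUROG1 and NEUROG2 act in sensory and cortical neurogenesis, NEUROG3 specifies pancreatic endocrine progenitors, and NEUROD1 and NEUROD4 act downstream in neuronal (and for NEUROD1 also endocrine) differentiation. ATOH1 specifies cerebellar granule cells and inner ear hair cells. OLIG1 and OLIG2 act in the oligodendrocyte lineage, and OLIG2 also in motor neuron progenitors.

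The 8 genes were at or near the detection limit in every library. Of their 56 values, 35 were listed at 0 FPKM (fragments per kilobase of transcript, scaled to the mapped reads of the library), 4 reached 1 FPKM and 0 exceeded 4 FPKM. Only 2 values had a Cufflinks 95% interval with a lower bound above 0, NEUROG3 on Day 1 and OLIG1 on Day 3. By comparison, 56.9% of the genes on chromosomes had such a bound on Day 0, 60.3% on Day 1, 61.1% on Day 2, 61.8% on Day 3 and 59.0% on Day 4, and 60.6% and 59.3% in mut -Dox and mut +Dox. Among the 3500 genes with a mean FPKM of 0.0156 to 0.645, the range of the family without NEUROG2, the share was 2.63% on Day 0, 5.60% on Day 1 and 7.60% on Day 3, so 1 of 8 on Day 1 and on Day 3 was not low for such levels. By mean FPKM over the 7 libraries the order was NEUROG3 (0.645), OLIG1 (0.582), ATOH1 (0.207), NEUROG1 (0.162), OLIG2 (0.151), NEUROD1 (0.0167), NEUROD4 (0.0156) and NEUROG2 (0). In these bulk samples, fewer cells expressing a gene and less RNA per cell cannot be told apart.

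**Figure D1:**
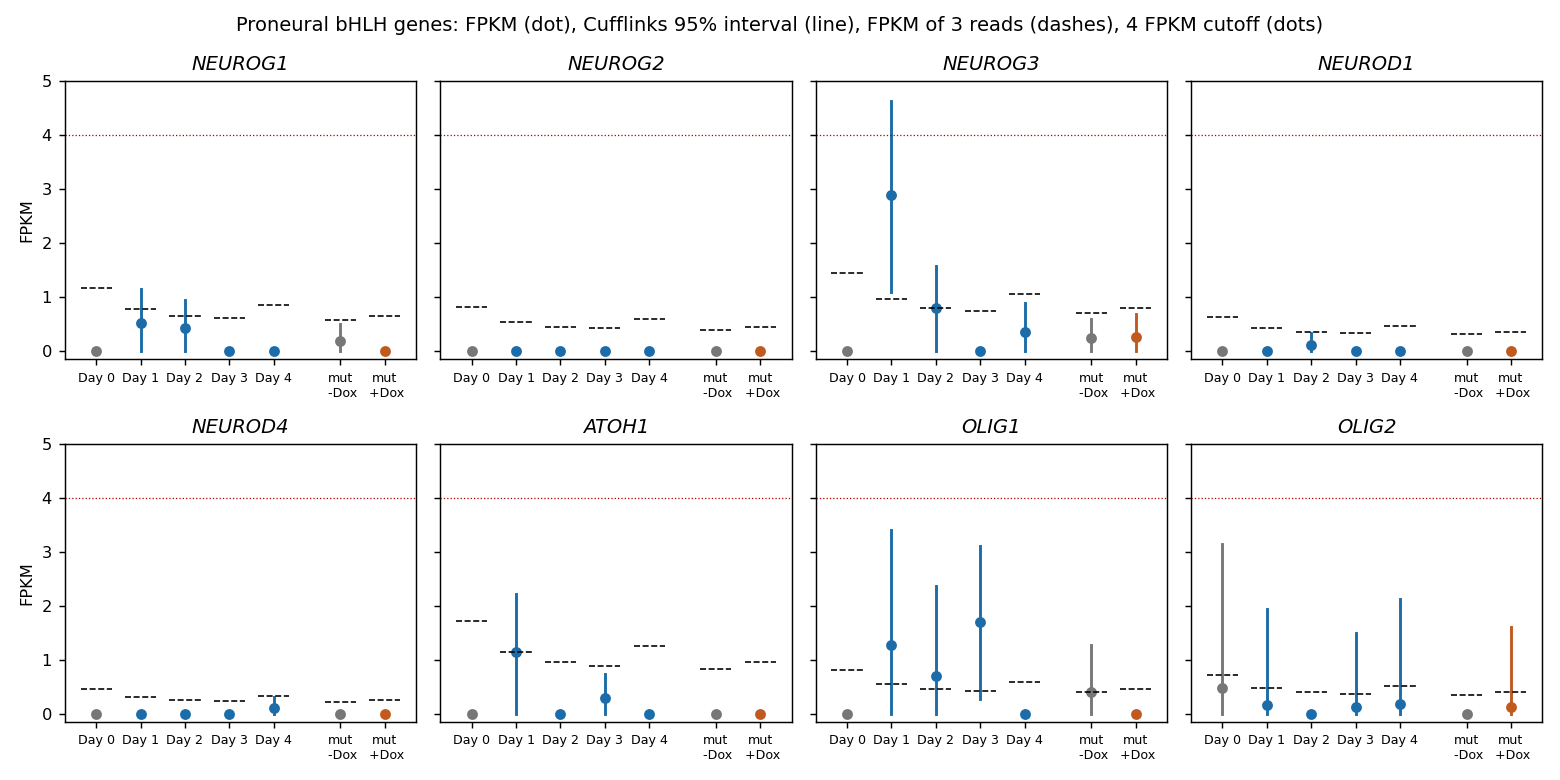
FPKM of each gene (y axis) in the 7 libraries (x axis), with dots for values, vertical lines for the Cufflinks 95% interval, short dashes for the FPKM that 3 reads would give and a dotted line at 4 FPKM. NEUROG3 on Day 1, at 2.88 FPKM, is the highest of the 56 values, and no dot reaches the dotted line.

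The depth behind these values sets how low a gene could be seen. FPKM values of low single-exon genes fell on whole multiples of a common step, read as 1 read, in 82.8% to 87.9% of cases within 0.1 read. This share leaves out nonzero values well under 1 read. It covers 91 of 107 low values on Day 0 and 121 of 147 on Day 1. The step gave 1780000 reads on Day 0, 2660000 on Day 1, 3220000 on Day 2, 3440000 on Day 3 and 2430000 on Day 4, and 3660000 and 3200000 reads in the mut -Dox and mut +Dox libraries. Day 0, the untreated reference, was thus the shallowest. For 7 genes (all but OLIG1) the values were turned back into reads, and all 17 nonzero values were whole within that tolerance. This is no independent check of the step. OLIG1 was left out because its values did not give whole reads, and the OLIG2 transcript was chosen because its values did. The detection floor given below is the FPKM of 3 reads. The Poisson intervals are wider, and for a count of 0 their upper end is 3.69 reads. Floors and Poisson intervals cover counting error only.

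**Figure D2:**
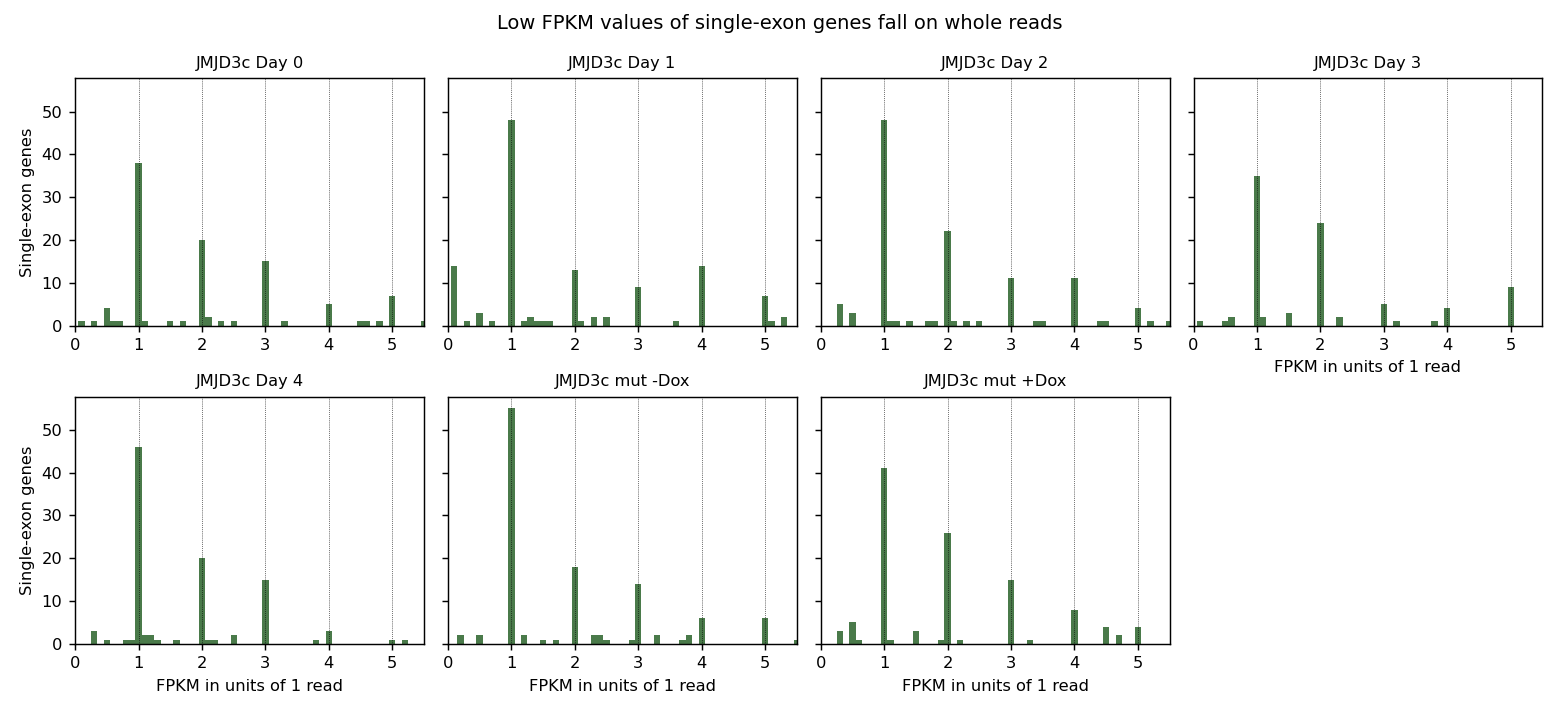
Number of low single-exon genes (y axis) by FPKM expressed in units of 1 read (x axis), 1 panel per library. Most values stand at 1, 2, 3 and further whole reads, with 35 to 55 genes at 1 read in each library.

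NEUROG3 (ENSG00000122859, hg19 chr10:71331454-71332994, minus strand, 2 exons) had the highest value of the family. It was listed at 0 on Day 0, 2.88 FPKM on Day 1, 0.793 on Day 2, 0 on Day 3 and 0.350 on Day 4, and at 0.233 and 0.266 FPKM in the mut -Dox and mut +Dox libraries. These values correspond to 0, 9, 3, 0, 1, 1 and 1 reads. Day 1 stood above the other 6 libraries, and NEUROG3 was back at 1 read or fewer by Day 3. Its floors lay between 0.697 FPKM in mut -Dox and 1.44 FPKM on Day 0.

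The Day 1 value of NEUROG3 had a Cufflinks interval of 1.09 to 4.63 FPKM and an exact 95% Poisson interval of 1.31 to 5.46 FPKM. Set over the 3-read floors of Day 0 and Day 3, which had 0 reads, its listed value was 2.00-fold and 3.87-fold higher. For the ratios of the reads themselves, 9 against 0 scaled by depth, the lower ends of the exact 95% intervals were 1.32 and 2.55. Against Day 2 the ratio was 3.63, with a 95% counting interval (exact binomial, scaled by depth) of 0.905 to 20.8, so these neighbours in the order were not separated by counting error. Against Day 4 the ratio was 8.23 (interval 1.14 to 361), against mut -Dox 12.4 (1.71 to 542) and against mut +Dox 10.8 (1.50 to 474). Day 1 was picked here as the highest of 7 libraries, which favours lower bounds above 1, and these intervals compare libraries and not conditions. The remaining 6 libraries held 0 to 3 reads each, with Poisson intervals that all overlapped. NEUROG3 was 1 of 64 genes, 0.317% of 20187, with a lower bound above 0 on Day 1 alone.

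NEUROG1 (ENSG00000181965, chr5:134869991-134871639, minus strand, 1 exon) was listed at 0.519 FPKM on Day 1, 0.429 on Day 2 and 0.189 in mut -Dox, and at 0 in the other 4 libraries. These are 2, 2 and 1 reads, all below its floors of 0.566 to 1.17 FPKM. The Poisson interval on Day 1, 0.0628 to 1.87 FPKM, overlapped the upper limit of 1.43 FPKM for the 0 reads of Day 0. NEUROG2 (ENSG00000178403, chr4:113434672-113437328, minus strand, 2 exons) was listed at 0 in all 7 libraries, with floors of 0.393 to 0.809 FPKM. A NEUROG2 level under these floors was not detectable at this depth.

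The 3 neurogenins share sequence in the part that encodes the bHLH domain, which bears on whether a read could be credited to the wrong gene. The longest exact run shared by the transcripts of 2 of the 8 genes was 29 bases, between NEUROG2 and NEUROG3, and lay in the coding part of both. NEUROG1 and NEUROG3 shared 21 bases, as did OLIG1 and OLIG2, and the shortest of the 28 pairwise maxima was 10 bases. All are shorter than the 150-base reads. The 3 longest runs, shown from the sense strand of GENCODE transcripts, are:
NEUROG2 and NEUROG3: ctgcgcttcgcccacaactacatctgggc
NEUROG1 and NEUROG3: atcgagacgctgcgcttcgcc
OLIG1 and OLIG2: caagatcaacagccgcgagcg

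ATOH1 (ENSG00000172238, chr4:94750042-94751221, plus strand, 1 exon) was listed at 1.15 FPKM on Day 1 and 0.297 on Day 3, and at 0 in the other 5 libraries. The Day 1 value was 3 reads, exactly at its floor, with a Cufflinks interval of 0 to 2.22 FPKM, and the Day 3 value was 1 read. Its floor on Day 0 was 1.72 FPKM, higher than the Day 1 value, so a difference between these days was not detectable. The gene model in the files spans 1180 bases, against 2212 annotated in GENCODE, so reads outside that span were not counted. ATOH1 floors, 0.836 to 1.72 FPKM, were the highest of the family.

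NEUROD1 (ENSG00000162992, chr2:182541194-182545603, minus strand) was seen on Day 2 alone, at 0.117 FPKM from 1 read, with floors of 0.309 to 0.637 FPKM. NEUROD4 (ENSG00000123307, chr12:55413729-55423798, plus strand, 2 exons) was seen on Day 4 alone, at 0.109 FPKM from 1 read, with floors of 0.218 to 0.450 FPKM. A lone read does not separate any library from another for these 2 genes.

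OLIG1 (ENSG00000184221, chr21:34442450-34444726, plus strand) was listed at 0 on Day 0, 1.28 FPKM on Day 1, 0.705 on Day 2, 1.70 on Day 3 and 0 on Day 4, and at 0.394 and 0 FPKM in mut -Dox and mut +Dox. Only the Day 3 value had a lower bound above 0, with an interval of 0.280 to 3.11 FPKM, and the Day 1 interval was 0 to 3.41 FPKM. OLIG1 was 1 of 121 genes, 0.599% of 20187, with such a bound on Day 3 alone. Several OLIG1 transcripts are annotated, and the values gave whole reads for neither a long nor a short transcript. Between 5.15 and 12.10 reads would stand behind Day 3, so no lower bound on a fold is given. With the longest transcript its floors were 0.395 to 0.813 FPKM.

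OLIG2 (ENSG00000205927, chr21:34398153-34401504, plus strand), the neighbour of OLIG1 on chromosome 21, was the only gene of the family listed above 0 on Day 0. It stood at 0.473 FPKM on Day 0, 0.158 on Day 1, 0 on Day 2, 0.122 on Day 3 and 0.173 on Day 4, and at 0 and 0.131 FPKM in mut -Dox and mut +Dox. These are 2, 1, 0, 1, 1, 0 and 1 reads on its spliced transcript, a choice made after the values were seen because it gave whole reads. All lay below its floors of 0.345 to 0.710 FPKM. The Day 4 to Day 0 ratio of 0.365 had a counting interval of 0.00619 to 7.01, so a fall or a rise was not detectable. OLIG1 and OLIG2 had their highest values in different libraries, Day 3 and Day 0.

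The next question was whether any of the 8 genes passed the cutoffs the study used for its gene lists, a change of more than 2-fold with the higher of both samples over 4 FPKM. Relative to Day 0, 0 of 8 were upregulated and 0 of 8 downregulated on each of Days 1 to 4. Over all genes on chromosomes, the upregulated share was 1.76% on Day 1, 1.97% on Day 2, 2.40% on Day 3 and 2.98% on Day 4, and the downregulated share was 1.65%, 2.14%, 2.28% and 3.84%. In the mutant line 0 of 8 changed with Dox, where 0.604% of all genes were higher and 0.738% lower. Between Day 4 and mut +Dox, libraries of different lines after the same 4 days of Dox, 0 of 8 differed, against 3.25% higher and 1.49% lower of all genes. Since 0 of the 56 values exceeded 4 FPKM, no gene of the family could be called under these cutoffs in any comparison, and the absence of calls says nothing beyond its low levels. Against the other untreated library, mut -Dox, 0 of 8 passed on any day in either direction, where 2.83%, 2.95%, 3.51% and 3.51% of all genes were higher and 0.916%, 0.981%, 1.17% and 1.94% lower on Days 1 to 4.

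On the log2(FPKM + 1) scale, which understates changes of low genes, the Day 4 to Day 0 differences ran from -0.33 for OLIG2 to 0.43 for NEUROG3, with a median of 0.00 over the family and 0.00 over all genes. On Day 1 they ran from -0.35 for OLIG2 to 1.95 for NEUROG3, with 4 genes higher, 1 lower and 3 at 0 in both libraries, and a median of 0.30. On Day 3 the highest was OLIG1 at 1.43. In the mutant line they ran from -0.48 for OLIG1 to 0.18 for OLIG2.

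With a cutoff of 1 FPKM in place of 4, NEUROG3, ATOH1 and OLIG1 passed on Day 1, 3 of 8 genes against 4.37% of all genes, and OLIG1 passed on Day 3, 1 of 8 against 5.10%. On Day 2 and Day 4, 0 of 8 passed upwards, against 4.64% and 5.93%. These passes rest on 9 reads for NEUROG3 and 3 for ATOH1. With no FPKM cutoff, 4, 4, 2 and 2 of the 8 were more than 2-fold higher than Day 0 on Days 1 to 4, against 10.2%, 10.6%, 11.4% and 11.6% of all genes. OLIG2 alone was lower on each day, against 6.44%, 7.61%, 7.63% and 10.6% of all genes. In the mutant line OLIG2 was higher (6.38% of all genes) and NEUROG1 and OLIG1 lower (7.48%), and NEUROD4 was higher on Day 4 than in mut +Dox (12.1%, with 7.79% lower). Apart from NEUROG3 on Day 1 and OLIG1, these passes rest on 0 to 3 reads in each library. The number of family members above 0 FPKM was 1, 5, 4, 3 and 3 on Days 0 to 4 and 3 and 2 in the mut -Dox and mut +Dox libraries. This count followed the order of depth only in part, since Day 1 with 2660000 reads had more than Day 3 with 3440000.

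Reads were not recovered for OLIG1, which is left out of the read sums here. The other 7 genes together had 2, 15, 6, 2 and 3 reads on Days 0 to 4 and 2 reads in each mutant library. Per 1000000 estimated mapped reads this was 1.13 on Day 0 (exact 95% Poisson interval 0.136 to 4.07) and 5.63 on Day 1 (3.15 to 9.29). It was 1.86 on Day 2, 0.582 on Day 3, 1.23 on Day 4, 0.546 in mut -Dox and 0.625 in mut +Dox. The ratio of Day 1 to Day 0 had a counting interval of 1.16 to 45.1, that of Day 1 to mut -Dox 2.40 to 92.9 and that of Day 1 to Day 4 1.29 to 24.6. Day 1 was again picked as the highest of the 7 libraries, which favours lower bounds above 1. NEUROG3 alone gave 9 of the 15 reads of Day 1. Without it Day 1 had 6 reads, 2.25 per 1000000 (0.827 to 4.90), and the interval of the ratio to Day 0 became 0.358 to 20.3, that to mut -Dox 1.00 to 379 and that to Day 4 0.490 to 27.8. In these 7 genes, the separation of Day 1 from Day 0 and Day 4 thus rested on NEUROG3. The ratio of Day 4 to Day 0, 3 reads against 2, had an interval of 0.125 to 13.1. With OLIG1 included, the FPKM of all 8 genes summed to 0.473, 5.98, 2.04, 2.12 and 0.632 on Days 0 to 4. Day 3 was thus above Day 0 in summed FPKM, though not in the reads of the 7 genes.

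**Figure D3:**
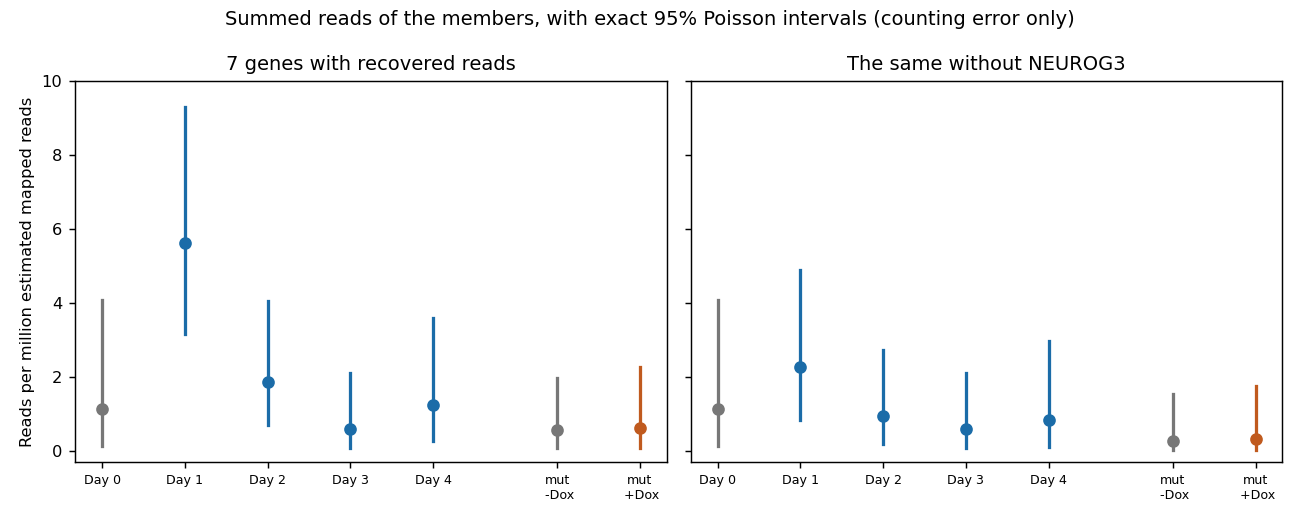
Reads of the family per 1000000 estimated mapped reads (y axis) in the 7 libraries (x axis), for the 7 genes with recovered reads (left) and without NEUROG3 (right). Lines are exact 95% Poisson intervals. Day 1 stands at 5.63 on the left and 2.25 on the right, where its interval overlaps those of all other libraries.

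Promoters of 6 of the 8 genes were matched in RefSeq (GRCh38.p14), and the 250 bases upstream of the start were searched. The 3 genes whose highest value fell on Day 1 and NEUROG2, which gave no read, are shown 5′ to 3′ on the gene's strand, with E boxes in capitals:
NEUROG3 (chr10:69573423-69573672, minus strand): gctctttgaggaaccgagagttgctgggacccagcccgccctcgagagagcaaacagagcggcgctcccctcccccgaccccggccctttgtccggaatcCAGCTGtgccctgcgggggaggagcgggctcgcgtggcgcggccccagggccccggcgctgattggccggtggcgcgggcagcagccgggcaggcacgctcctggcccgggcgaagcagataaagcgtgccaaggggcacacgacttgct
NEUROG1 (chr5:135535965-135536214, minus strand): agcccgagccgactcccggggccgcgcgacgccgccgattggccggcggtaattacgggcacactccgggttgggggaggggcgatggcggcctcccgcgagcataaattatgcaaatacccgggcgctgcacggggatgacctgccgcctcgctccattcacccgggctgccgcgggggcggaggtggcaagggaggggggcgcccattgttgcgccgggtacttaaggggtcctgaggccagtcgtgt
ATOH1 (chr4:93828503-93828752, plus strand): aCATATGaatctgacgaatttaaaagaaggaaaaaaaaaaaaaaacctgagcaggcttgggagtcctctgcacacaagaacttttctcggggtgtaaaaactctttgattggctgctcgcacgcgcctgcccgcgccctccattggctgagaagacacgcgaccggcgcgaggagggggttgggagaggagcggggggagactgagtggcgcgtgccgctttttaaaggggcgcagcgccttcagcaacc
NEUROG2 (chr4:112516181-112516430, minus strand): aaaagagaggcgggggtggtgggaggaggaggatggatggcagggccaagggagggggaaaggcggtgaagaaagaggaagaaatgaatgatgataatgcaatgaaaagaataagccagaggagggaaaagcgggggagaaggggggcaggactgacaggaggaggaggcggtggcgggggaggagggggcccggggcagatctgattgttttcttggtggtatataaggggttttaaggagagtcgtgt

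The window of NEUROG3 held 1 E box, CAGCTG, and that of ATOH1 held 1, CATATG, while those of NEUROG1 and NEUROG2 held 0. Across 35116 promoters of this length, 61.8% had a CANNTG on either strand. A CACNAG, the N box bound by HES factors, occurred 1 time in the ATOH1 window and in 32.0% of all promoters. A TATAAA occurred in 0 of the 6 and in 10.7% of all. Guanine and cytosine made up 72.0% of the NEUROG3 window, 70.4% for NEUROG1, 55.2% for ATOH1 and 56.0% for NEUROG2, against a median of 58.0%. The CpG observed over expected ratio was 0.772, 0.984, 0.965 and 0.700 in the same order, above the median of 0.558. Of the other 2 matched promoters, NEUROD1 lay above it at 0.863 and NEUROD4 below it at 0.342.

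The dimer partners of the family were abundant in every library. TCF3, the most abundant E protein in these libraries, was listed at 191 FPKM on Day 0 and 126 on Day 4, TCF12 at 42.0 and 27.1, and TCF4 at 25.4 and 18.0. None of the 3 passed the cutoffs on any day or in the mutant line. TCF3's value lay inside its own Cufflinks interval in 2 of the 7 libraries, so its level is uncertain. The E proteins summed to 172 to 258 FPKM per library, where the 8 proneural genes summed to 0.397 (mut +Dox) to 5.98 FPKM (Day 1).

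Of 15 ID, HES and HEY inhibitors, 2 were upregulated and 3 downregulated on Day 4, with a median log2 change of -0.13. ID3, an inhibitor that takes up E proteins, was listed at 49.9, 70.1, 107, 156 and 144 FPKM on Days 0 to 4, and at 52.3 and 86.8 in the mut -Dox and mut +Dox libraries. ID4 stood at 1.31 FPKM on Day 0 and 5.94 on Day 4. HES3, a repressor of proneural genes, was listed at 70.5, 46.3, 51.5, 35.3 and 10.8 FPKM on Days 0 to 4, against 39.8 and 35.9 in the mutant line. HES4 was listed at 6.41 FPKM on Day 0 and 1.96 on Day 4, but at 1.63 in mut -Dox, so its downregulation depended on the untreated library. On Day 1, when NEUROG3 had its highest value, 0 of the 15 passed in either direction relative to Day 0. Against mut -Dox, HES4 passed upwards on Day 1 (9.03 against 1.63 FPKM). Relative to Day 0, none of 15 Notch ligands, receptors and modifiers passed on Day 1, 2 or 4. Relative to mut -Dox, NUMBL passed upwards on Day 1 and LFNG on Days 3 and 4. DLL1, a ligand that proneural factors activate, was downregulated on Day 3, at 6.24, 5.43, 5.74, 2.84 and 4.00 FPKM on Days 0 to 4, but was not called against mut -Dox (5.14 FPKM).

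Most other neural and retinal bHLH genes were also low. Of 13, 0 to 4 exceeded 1 FPKM in any library. OLIG3, a relative of OLIG1 and OLIG2, had the highest level among them, with 1.41, 8.46, 20.4, 10.3 and 10.1 FPKM on Days 0 to 4 and 3.15 and 0.313 FPKM in mut -Dox and mut +Dox. It was upregulated on each of Days 1 to 4, with a ratio of 7.15 on Day 4 and intervals of Day 4 (7.10 to 12.9) and Day 0 (0.256 to 2.56) that did not overlap. Of 15 mesoderm bHLH genes, TWIST1 was the only one upregulated on Day 4, from a listed 0 to 5.61 FPKM.

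**Figure D4:**
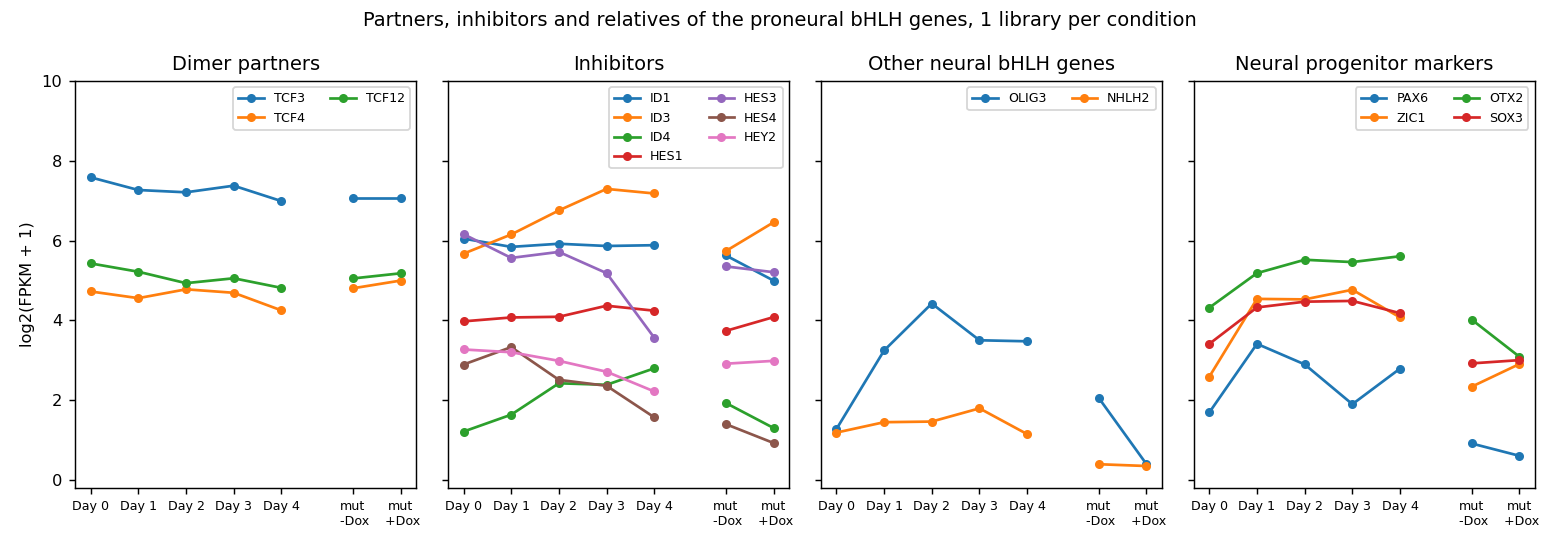
Levels on the log2(FPKM + 1) scale (y axis) of E proteins, inhibitors, other neural bHLH genes and neural progenitor markers in the 7 libraries (x axis), with lines joining libraries of 1 line of cells. OLIG3 peaks at 20.4 FPKM on Day 2, ID3 reaches 156 FPKM on Day 3 and HES3 ends at 10.8 FPKM on Day 4.

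Genes that act downstream of proneural factors did not follow a common direction. Of 28, 1 was upregulated on Day 1, GADD45G, a growth arrest gene listed at 2.61 FPKM on Day 0 and 5.22 on Day 1. On Day 4, 2 were upregulated and 2 downregulated, with a median log2 change of -0.05 (0.00 over all genes). The upregulated genes were EOMES, which is also a mesendoderm marker (0 to 38.2 FPKM), and CHGA, a secretory granule protein (4.42 to 10.4 FPKM). The downregulated genes were the corepressor CBFA2T2 (ratio 0.341) and the neuronal gene STMN2 (5.86 to 1.08 FPKM). Relative to mut -Dox their Day 4 ratios were 0.712 and 0.504, so neither was called against that library.

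Markers of the cell types in which these genes act were read beside them. On Day 4, 4 of 16 neural progenitor markers were upregulated, PAX6, ZIC1, OTX2 and MSX1, against 2.98% of all genes. The Cufflinks intervals of Day 4 and Day 0 overlapped for PAX6 and ZIC1. On Day 1, together with the highest NEUROG3 value, PAX6 (2.22 to 9.62 FPKM), ZIC1 (4.99 to 22.2) and SIX3 (6.64 to 14.5) were upregulated. The Day 0 interval of PAX6, 0 to 11.5 FPKM, contained its Day 1 value, and SIX3 was not called on Day 1 against mut -Dox (8.99 FPKM). Of 12 pancreatic endocrine markers, 0 passed on any day, 7 of 12 were at 0 on Day 1, and PDX1, PAX4, RFX6, INS and GCG were at 0 in all libraries. Other endocrine markers were not silent. On Day 4, 3 of the 12 exceeded 1 FPKM, against 1 on Day 0. The highest were CHGB on Day 1 at 2.08 FPKM and MNX1 on Day 4 at 1.74 FPKM. The endocrine markers summed to 1.05 to 4.84 FPKM per library, with 2.88 on Day 1. Of 8 oligodendrocyte lineage markers, 0 were upregulated on any day relative to Day 0. SOX10, a glial transcription factor, was listed at 1.67 FPKM on Day 0 and 2.91 on Day 3, the day with the highest OLIG1 value. Their part in the NEUROG3 and OLIG1 values was not tested.

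All 8 hESC markers exceeded 1 FPKM in every library, with POU5F1 at 619 to 841 FPKM. On Day 4, 2 of them were downregulated relative to Day 0, SOX2 (136 to 65.9 FPKM) and DNMT3B (404 to 191), and the median log2 change of the 8 was -0.63. Neither was called against mut -Dox, where the Day 4 ratios were 0.662 and 0.519. The median log2 change of the 8 hESC markers was -0.20 with Dox in the mutant line. Between Day 4 and mut +Dox it was -0.15, and 0 of the 8 were called in either comparison. KDM6B, the gene of JMJD3, whose reads include the construct, was listed at 3.45 FPKM on Day 0 and 158 to 282 on Days 1 to 4, and at 2.40 and 454 FPKM in mut -Dox and mut +Dox. All 9 mesendoderm markers were upregulated on Day 4, against 2.98% of all genes, with a median log2 change of 3.98. The study names most of them as upregulated by JMJD3c, so their calls were known beforehand and are no test. The median of the proneural genes was 0.00, with 5 of the 8 at 0 in both libraries.

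The pattern of NEUROG3, the gene of the family with the highest mean level (0.645 FPKM), was compared with that of 13650 genes reaching 1 FPKM in any library. The 5 most like it by Pearson correlation of log2(FPKM + 1) over the 7 libraries were FAM178B (r = 0.970), HMCN2 (0.965), ALG10B (0.960), ADTRP (0.959) and GTF2A1L (0.957). Each had its highest value on Day 1, from 1.09 FPKM for ADTRP to 6.10 FPKM for ALG10B. These correlations rest on the Day 1 library, and 4 of the 5 were listed at 0 in 5 libraries.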

How the data were processed

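RNA-seq was performed on poly(A) RNA with a directional kit and single-end MiSeq reads. The authors mapped reads to hg19 with TopHat2 and deposited Cufflinks FPKM values per gene with 95% interval bounds. The submitters' processing notes name CASAVA 1.4, TopHat2 2.0.13 and Cufflinks 2.1.1, and the annotation release was not given in the sources used here. FPKM hold no counts. Low FPKM of single-exon genes of at least 600 bases were divided by the value of 1 read (length less 200 bases), and the smallest common step gave the depth, 1780000 to 3660000 reads. If that step were more than 1 read, reads would scale with it. Counts recovered this way support no count test, with 1 library per condition.

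Samples were grouped by their titles. Genes were called at a ratio above 2 or below 0.5 where the higher sample exceeded 4 FPKM, and log2 changes a pseudocount of 1. Where a name had several entries, the one with the highest mean was used. Genes named from each list are those called on Day 4 with the largest change (at most 4), or else the 2 most abundant. NHLH2, TCF4, DLL1, GADD45G, HEY2, SIX3, SOX3, SOX10, NUMBL, LFNG, POU5F1, HES1, ID1 and the endocrine genes fall outside that rule and were chosen after their values were seen. The genes and lists were chosen with earlier results of these data known. SCX and NEFL were not found by name. Some members of the lists are not reported here. Alternatives changed the cutoffs, scaling, pseudocount, reference library, detection rule, floors and shared entries. Transcripts came from GENCODE release 44 on GRCh37, promoters from RefSeq. Calculations used matplotlib 3.10.9, scipy 1.17.1, pandas 2.3.3 and numpy 2.4.6 in Python 3.11.15, and were tested on simulated data. ChIP data were not used here.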

Additional observations from a re-analysis of the deposited data

Results flagged for a closer look

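For several genes the change with Dox had opposite signs in the 2 lines. The comparisons were Day 4 against Day 0 in the JMJD3c-hESCs and mut +Dox against mut -Dox in the JMJD3c mut-hESCs. In the mutant line only OTX2 of the genes named here passed the cutoffs. For the others the sign in that line does not stand for a called change. With 1 library per condition, the difference was not tested for any of them. Of the 8 proneural genes this held for OLIG2, whose FPKM difference was -0.300 in the JMJD3c line and 0.131 in the mutant line, from 2 reads or fewer in each library. Among the other genes named, log2 changes were 2.20 and -1.66 for OLIG3, -0.61 and 0.13 for TCF12, 1.59 and -0.63 for ID4, 5.29 and -0.07 for EOMES, and 1.07 and -0.18 for CHGA. They were 2.33 and -0.21 for MSX1, 1.29 and -0.94 for OTX2, 1.10 and -0.31 for PAX6, and 7.07 and -0.44 for CER1.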

How the results depend on the processing

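No paired analysis was possible because each condition has 1 library and the labels carry no replicate numbers, and for the same reason no replicate could be left out. With a cutoff of 1 FPKM, 3 of the 8 genes were upregulated on Day 1 and 1 on Day 3. With no FPKM cutoff, 4 were upregulated on Day 1, 4 on Day 2, 2 on Day 3 and 2 on Day 4, 1 (OLIG2) was downregulated on each day, 3 differed in the mutant line and 1 between Day 4 and mut +Dox. When detection meant 3 reads, 3 genes were detected on Day 1, 2 on Day 2 and 1 in mut -Dox. Each of these counts includes OLIG1, whose reads were not recovered and whose floor is that of its longest transcript. In mut -Dox its value of 0.394 FPKM was marginally under the floor of 0.395 FPKM and was counted as reaching it. On a short transcript OLIG1 would have 2.00 reads on Day 2 and 1.28 in mut -Dox. When it meant any value above 0, 1, 5, 4, 3 and 3 were detected on Days 0 to 4 and 3 and 2 in mut -Dox and mut +Dox, and at 1 FPKM 3 on Day 1. Scaling by median ratios (factors 0.981 to 1.023), the mut -Dox reference, intervals that must be apart and summed entries could not change the 0 calls at 4 FPKM, since no value of the 8 genes exceeded 2.88 FPKM and each has 1 entry, so these alternatives show nothing about stability. A pseudocount of 0.1 raised the NEUROG3 change on Day 1 from 1.95 to 4.90. Without subtracting 200 bases the Day 0 floors of NEUROG1, NEUROG3 and ATOH1 were 1.02, 1.23 and 1.43 FPKM, and the spacing of OLIG1's own values put its floor at 2.44 FPKM. The longest OLIG2 transcript put its Day 0 floor at 0.536 FPKM. At this depth, levels under about 3 reads cannot be told from 0.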
